A study of Arabidopsis thaliana with 18 samples.

Results

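Transcripts of the 10 Arabidopsis enzymes that act after 4-coumarate:CoA ligase (4CL) on the way to monolignols were followed across 6 genotypes. The genes were taken by their AGI identifiers, and 9 of them are described one by one: HCT (AT5G48930), C3'H (AT2G40890), CSE (AT1G52760), CCoAOMT1 (AT4G34050), CCR1 (AT1G15950), CCR2 (AT1G80820), F5H (AT4G36220), CAD4 (AT3G19450) and CAD5 (AT4G34230). They are 10 of the 33602 gene identifiers in the count table, and all 10 were among the 19897 genes that passed the filter on low counts.

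The plants were Columbia-0, grown at 23 °C with 16 h of light and 8 h of dark and harvested as whole rosettes at 18 days, 6.5 h after dawn. Each of the 18 libraries held poly(A) RNA from 5 pooled rosettes, with 3 libraries per genotype, so the spread given here is between such pools. The med5a-1 med5b-1 double mutant, below called med5, was studied together with its triple mutants with ref5-1 (ref5-1 med5) or with ref2-1 (ref2-1 med5) and with the ref5-1 and ref2-1 single mutants. They were set against each other and against wild type, which carried none of these alleles. The ref5-1 allele is a missense change in CYP83B1 (AT4G31500), which encodes a P450 enzyme on the route to indole glucosinolates, and ref2-1 is a loss-of-function allele of CYP83A1 (AT4G13770), which serves aliphatic glucosinolate synthesis. Mediator, of which MED5A (AT3G23590) and MED5B (AT2G48110) are subunit genes, is the complex that links transcription factors to RNA polymerase II. The comparisons address which transcript changes in the glucosinolate mutants need MED5.

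Monolignols are the phenylpropanoid alcohols that are polymerised into lignin. From p-coumaroyl-CoA, HCT, C3'H and CSE serve the route on which the ring gains its second hydroxyl group as a shikimate ester. CCoAOMT1 methylates caffeoyl-CoA. CCR reduces the CoA thioesters to aldehydes, F5H opens the branch to syringyl units, and CAD reduces the aldehydes to alcohols. In rosette leaves the same route also feeds sinapoylmalate, an ultraviolet-absorbing ester of the epidermis, through F5H.

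Values are read counts scaled to library size (CPM), with TMM factors. Fold changes were estimated on the log2 scale with edgeR's quasi-likelihood test over all tested genes and are given as the log2 change ± SE. A gene was called at a Benjamini-Hochberg adjusted p under 0.05, and "rose" and "fell" are used only of called genes. The libraries held 19578169 to 33193849 gene counts, and both ends were ref5-1 med5 libraries. The ref5-1 med5 replicate 1 library stood apart in having 25.3% of its reads aligned to several places, against 8.91% in the next highest library. CYP83A1 lay between 117 and 154 CPM in every library with ref2-1 and between 345 and 525 CPM in every other one. MED5B lay between 6.31 and 8.47 CPM in every library with med5 and between 23.5 and 30.7 CPM in the rest. MED5A ran from 23.4 to 40.8 CPM with med5 and from 34.8 to 52.2 CPM without it, so it did not separate the libraries across backgrounds. Within each background it lay lower with med5, with no overlap. It had 29.0 to 33.8 CPM in med5, against 45.4 to 52.2 CPM in wild type. The ranges were 37.3 to 40.8 CPM in ref5-1 med5, against 46.9 to 51.6 CPM in ref5-1. They were 23.4 to 29.4 CPM in ref2-1 med5, against 34.8 to 41.8 CPM in ref2-1. The ref5-1 change is in the protein, and CYP83B1 levels therefore check no label. The rosette leaf markers RBCS1A, CA1, RCA and LHCB1.1 summed to between 29648 and 39818 CPM per library. The sums were 29648 to 31825 CPM in ref2-1, against 34319.5 to 35553 CPM in wild type, with no overlap. RCA, the Rubisco activase gene, was called lower in ref2-1 relative to wild type (log2 change −0.32 ± 0.089, adjusted p = 0.0133), a call lost without ref2-1 replicate 2. In ref2-1 med5, 2 of the 4 were called lower relative to med5, and 1 without med5 replicate 1 or ref2-1 med5 replicate 1 or 2. Relative to wild type 2 of the 4 were called lower in ref2-1 med5, 1 without wild type replicate 1 or 3 and 0 without wild type replicate 2 or ref2-1 med5 replicate 1 or 2. The part of these markers in the member levels was not tested.

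The med5 alleles went with more transcript of CSE and CCoAOMT1 in each of the 3 backgrounds examined, and of HCT, C3'H and CAD4 in both glucosinolate mutants. In ref5-1 med5 relative to ref5-1, HCT, C3'H, CSE, CCoAOMT1 and CAD4 rose, which is 5 of 10 members called higher where 6.09% of all tested genes were (10.8% in either direction). In ref2-1 med5 relative to ref2-1 the same 5 genes were among 6 of 10 members that rose, against 4.65% of all tested genes (8.91% in either direction). In med5 relative to wild type, CSE and CCoAOMT1 rose, 2 of 10 members against 0.337% of all tested genes (0.779% in either direction). The median log2 fold change of the 10 members was 0.39 in ref5-1 med5 relative to ref5-1, 0.62 in ref2-1 med5 relative to ref2-1 and 0.28 in med5 relative to wild type. The medians over all tested genes were 0.0033, −0.00047 and −0.0017 in the same 3 comparisons. The count in med5 relative to wild type was 1 without wild type replicate 1 or 2 or any of the 3 med5 libraries, and 5 in DESeq2, where HCT, C3'H and F5H also passed.

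**Figure D1:**
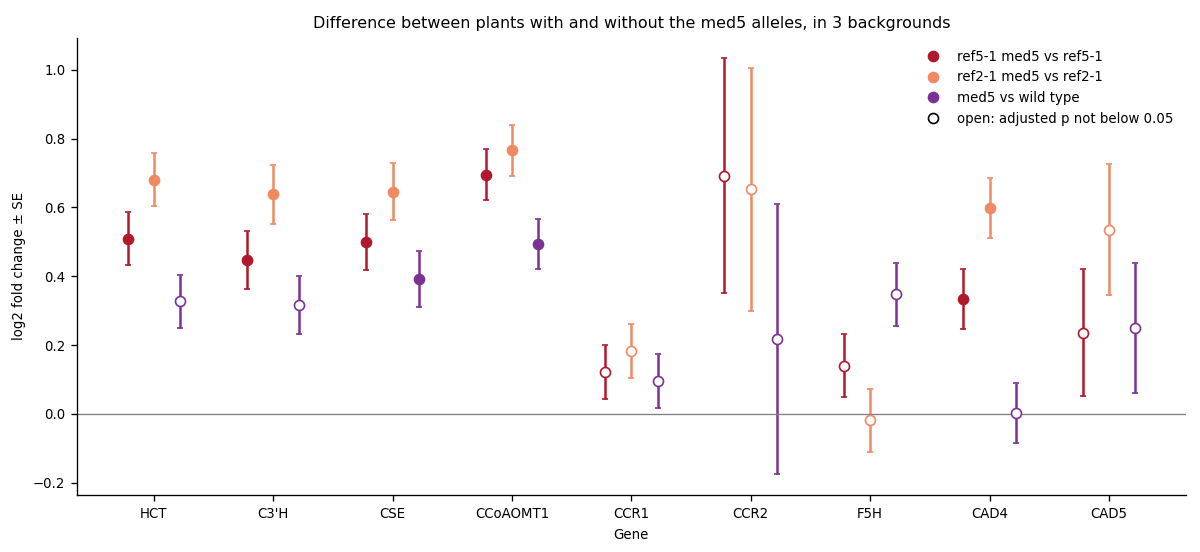
Log2 fold change ± SE (y axis) of each gene (x axis) between plants with and without the med5 alleles, in the ref5-1, ref2-1 and otherwise wild-type backgrounds, from 3 libraries per genotype. Filled points passed an adjusted p of 0.05. CCoAOMT1 is filled in all 3 backgrounds, and CCR1, CCR2, F5H and CAD5 in none.

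The glucosinolate mutants parted from each other. In ref2-1 relative to wild type HCT, C3'H, CCoAOMT1 and CAD4 were among 5 of 10 members that fell, where 11.2% of all tested genes were called lower (24.7% in either direction). That count was 3 without ref2-1 replicate 2 or wild type replicate 3. In ref5-1 relative to wild type HCT fell while CCR1 and CAD5 rose, 3 of 10 members against 8.72% of all tested genes called (3.6% lower and 5.12% higher). The count in ref5-1 was 1 without wild type replicate 1 or 2, or ref5-1 replicate 2, 1 with no filter on low counts and 0 when only the 6 libraries compared were fitted. Set directly against each other, ref5-1 was higher than ref2-1 in 8 of 10 members, among them HCT, CCoAOMT1, CCR1 and CAD5, where 10.4% of all tested genes were called higher (21.4% in either direction). The median log2 fold change of the members was −0.23 in ref2-1 and 0.14 in ref5-1, each relative to wild type, with all-gene medians of 0.0015 and −0.0042. All 3 comparisons of these genotypes share libraries with one another.

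Both triple mutants lay above wild type for part of the pathway. In ref5-1 med5, 8 of 10 members rose relative to wild type, among them CSE, CCoAOMT1, CCR2 and CAD5, against 11% of all tested genes called higher (19.1% in either direction). In ref2-1 med5, C3'H, CSE, CCoAOMT1 and CCR2 rose relative to wild type, 4 of 10 against 11.7% (20.7% in either direction). Relative to med5, CSE, CCoAOMT1, CCR1, CCR2 and CAD5 rose in ref5-1 med5, 5 of 10 against 6.24% of all tested genes (10.4% in either direction). That count was 1 without med5 replicate 1 or med5 replicate 3, 2 without ref5-1 med5 replicate 2, 3 without ref5-1 med5 replicate 3 and 4 without ref5-1 med5 replicate 1. In ref2-1 med5 relative to med5, CCR2 rose while HCT and F5H fell, 3 of 10 against 16.3% of all tested genes called (8.75% higher and 7.52% lower). That count was 1 without med5 replicate 3 or ref2-1 med5 replicate 2. Without ref5-1 med5 replicate 1, the library with many multiply aligned reads, the other counts in ref5-1 med5 stayed at 5 relative to ref5-1 and 8 relative to wild type.

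The interaction terms asked whether the effect of ref5-1 or ref2-1 depends on the med5 alleles. For ref5-1, 0 of 10 members were called in edgeR's quasi-likelihood test or in DESeq2, where 0.0905% of all tested genes were called by edgeR, and CAD4 alone had an unadjusted p under 0.05. For ref2-1, CAD4 was the 1 member called, against 0.749% of all tested genes (0.457% with a positive term). Its interaction was 0.60 ± 0.12 on the log2 scale (adjusted p = 0.0336). CAD4 lay lower in ref2-1 than in wild type, and in ref2-1 med5 it differed from med5 by 0.07 on the log2 scale, with no call. The call was lost without wild type replicate 1 or 2, ref2-1 replicate 1 or 3, med5 replicate 1 or 3, or any ref2-1 med5 library, with adjusted p between 0.0549 and 0.104. In all, 6 members had an unadjusted p under 0.05 for this term, positive for HCT, C3'H, CSE, CCoAOMT1 and CAD4 and negative for F5H. DESeq2 called HCT as well as CAD4 (adjusted p = 0.0382 for HCT), and C3'H was called without med5 replicate 2 (adjusted p = 0.047).

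**Figure D2:**
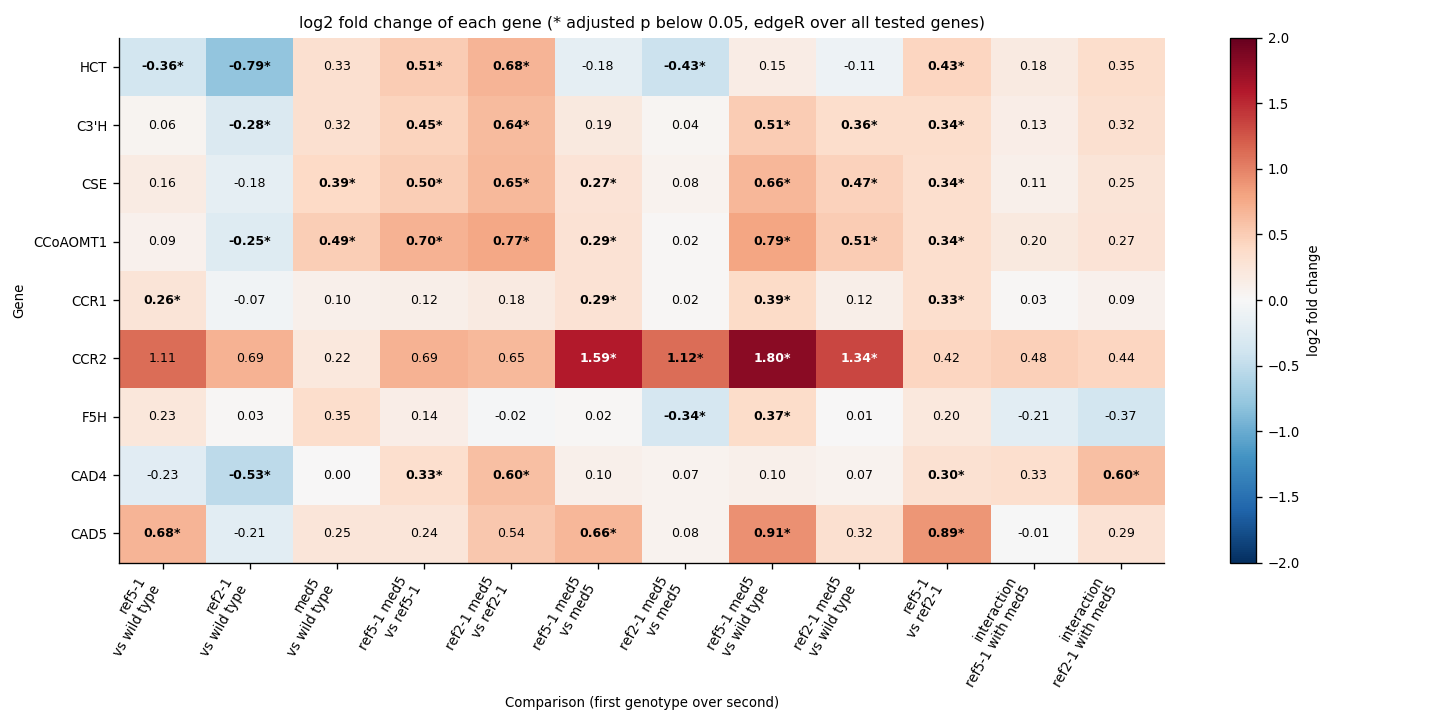
Log2 fold change of each gene (rows, in pathway order) in the 10 comparisons of genotypes and the 2 interaction terms (columns); colour runs from −2 (blue) to 2 (red), and an asterisk marks an adjusted p under 0.05. The ref2-1 column relative to wild type has 4 blue marked cells, and the ref5-1 med5 column relative to wild type has 7 red marked cells.

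HCT, the hydroxycinnamoyl-CoA shikimate hydroxycinnamoyl transferase that opens the shikimate ester loop, was the member with the most marked fall in ref2-1. HCT had 201, 209 and 206 CPM in the ref5-1 med5 libraries, 179, 162 and 175 CPM in those of ref2-1 med5 and 225, 245 and 228 CPM in those of med5. Its libraries had 129, 159 and 144 CPM in ref5-1 and 103, 111 and 107 CPM in ref2-1, against 191, 191 and 174 CPM in wild type. All 3 ref2-1 libraries lay below all 3 ref5-1 libraries, and both sets lay below wild type. HCT fell 1.73-fold in ref2-1 relative to wild type (log2 change −0.79 ± 0.077, adjusted p = 2.87e-06). It fell 1.29-fold in ref5-1 relative to wild type (log2 change −0.36 ± 0.076, adjusted p = 0.00577), a call lost when only the 6 libraries compared were fitted (adjusted p = 0.0686). HCT rose in ref2-1 med5 relative to ref2-1 (log2 change 0.68 ± 0.077, adjusted p = 2.94e-05) and in ref5-1 med5 relative to ref5-1 (log2 change 0.51 ± 0.076, adjusted p = 0.000467). Neither triple mutant was called against wild type, at an adjusted p of 0.194 for ref5-1 med5 and 0.343 for ref2-1 med5. HCT alone of the 10 members was highest in med5, where the 3 libraries exceeded all 15 others, yet the difference from wild type was not called (log2 change 0.33 ± 0.076, adjusted p = 0.0521). It passed in DESeq2 (adjusted p = 0.00118). In ref2-1 med5 it fell relative to med5 (log2 change −0.43 ± 0.076, adjusted p = 0.00136).

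C3'H, the cytochrome P450 (CYP98A3) that hydroxylates the p-coumaroyl shikimate ester, moved less. C3'H had 74.6, 75.6 and 69.5 CPM in the ref5-1 med5 libraries, 68.0, 62.3 and 67.2 CPM in those of ref2-1 med5 and 59.0, 73.2 and 60.1 CPM in those of med5. Its libraries had 58.3, 53.3 and 49.5 CPM in ref5-1 and 43.6, 40.6 and 42.8 CPM in ref2-1, against 50.1, 49.6 and 54.7 CPM in wild type. The ref2-1 libraries were the lowest of all 18, and the ref5-1 libraries overlapped those of wild type. C3'H rose in ref5-1 med5 relative to ref5-1 (log2 change 0.45 ± 0.084, adjusted p = 0.00296) and in ref2-1 med5 relative to ref2-1 (log2 change 0.64 ± 0.085, adjusted p = 0.000148). Relative to wild type it rose in ref5-1 med5 (log2 change 0.51 ± 0.084, adjusted p = 0.000384) and in ref2-1 med5 (log2 change 0.36 ± 0.084, adjusted p = 0.00609). Its fall in ref2-1 (log2 change −0.28 ± 0.085, adjusted p = 0.0202) was not called without wild type replicate 3 (adjusted p = 0.0675) or ref2-1 replicate 2 (adjusted p = 0.0732). In med5 it was not called against wild type (log2 change 0.32 ± 0.084, adjusted p = 0.0907) but passed in DESeq2 (adjusted p = 0.0212). Without med5 replicate 2, its highest med5 library, C3'H was also called higher in ref5-1 med5 than in med5 (adjusted p = 0.0285).

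CSE, the caffeoyl shikimate esterase that releases caffeate from its shikimate ester, followed nearly the same profile. CSE had 46.6, 47.5 and 56.3 CPM in the ref5-1 med5 libraries, 43.2, 45.7 and 42.9 CPM in those of ref2-1 med5 and 41.0, 43.6 and 40.5 CPM in those of med5. Its libraries had 37.6, 36.6 and 32.1 CPM in ref5-1 and 28.0, 26.7 and 29.6 CPM in ref2-1, against 30.3, 31.2 and 33.8 CPM in wild type. Every library with the med5 alleles exceeded every library without them. CSE rose in ref5-1 med5 relative to ref5-1 (log2 change 0.50 ± 0.082, adjusted p = 0.00107), in ref2-1 med5 relative to ref2-1 (log2 change 0.65 ± 0.083, adjusted p = 0.000109) and in med5 relative to wild type (log2 change 0.39 ± 0.082, adjusted p = 0.028). The call in med5 relative to wild type was lost without wild type replicate 1 (adjusted p = 0.165), wild type replicate 2 (adjusted p = 0.118), med5 replicate 1 (adjusted p = 0.0904), med5 replicate 2 (adjusted p = 0.0749) or med5 replicate 3 (adjusted p = 0.0811). Relative to wild type it rose 1.58-fold in ref5-1 med5 (log2 change 0.66 ± 0.082, adjusted p = 2.54e-05) and 1.38-fold in ref2-1 med5 (log2 change 0.47 ± 0.082, adjusted p = 0.000749). The rise in ref5-1 med5 relative to med5 (log2 change 0.27 ± 0.082, adjusted p = 0.0447) was lost without med5 replicate 1 (adjusted p = 0.143), med5 replicate 2 (adjusted p = 0.0532), med5 replicate 3 (adjusted p = 0.125), ref5-1 med5 replicate 2 (adjusted p = 0.0539) or ref5-1 med5 replicate 3 (adjusted p = 0.231). It was also lost with no filter on low counts (adjusted p = 0.0558) and when only the 6 libraries compared were fitted (adjusted p = 0.0937). The ref2-1 libraries all lay below wild type, a difference that was not called (log2 change −0.18 ± 0.083, adjusted p = 0.129).

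CCoAOMT1, the caffeoyl-CoA O-methyltransferase that makes feruloyl-CoA, was called in each of the 3 comparisons of plants with and without med5. CCoAOMT1 had 503, 482 and 499 CPM in the ref5-1 med5 libraries, 396, 415 and 419.7 CPM in those of ref2-1 med5 and 413, 418 and 382 CPM in those of med5. Its libraries had 311, 314 and 291 CPM in ref5-1 and 265, 217 and 241 CPM in ref2-1, against 284, 279 and 298 CPM in wild type. The lowest library with med5 was above the highest library without it. CCoAOMT1 rose 1.62-fold in ref5-1 med5 relative to ref5-1 (log2 change 0.70 ± 0.073, adjusted p = 1.73e-05) and 1.70-fold in ref2-1 med5 relative to ref2-1 (log2 change 0.77 ± 0.073, adjusted p = 5.26e-06). In med5 it rose 1.41-fold relative to wild type (log2 change 0.49 ± 0.073, adjusted p = 0.00183). The difference between ref5-1 med5 and wild type was 1.72-fold (log2 change 0.79 ± 0.073, adjusted p = 9.75e-07) and that between ref2-1 med5 and wild type 1.43-fold (log2 change 0.51 ± 0.073, adjusted p = 0.00013). It also rose in ref5-1 med5 relative to med5 (log2 change 0.29 ± 0.073, adjusted p = 0.0153), though not without med5 replicate 3 (adjusted p = 0.0766). Its fall in ref2-1 relative to wild type (log2 change −0.25 ± 0.073, adjusted p = 0.0167) was lost without wild type replicate 3 (adjusted p = 0.0501) or ref2-1 replicate 2 (adjusted p = 0.0869). The ref5-1 libraries overlapped those of wild type.

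**Figure D3:**
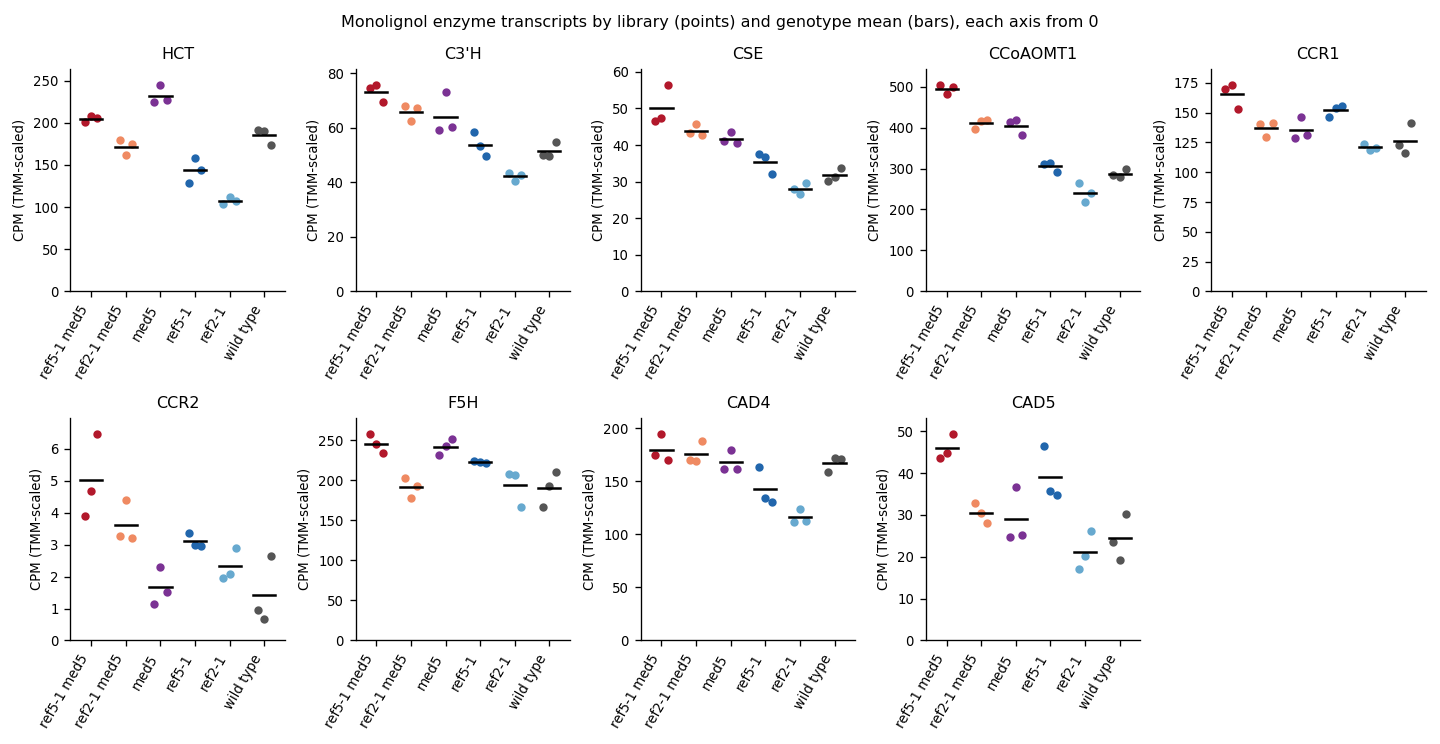
CPM of each gene (y axis, from 0) in each of the 18 libraries (points) by genotype (x axis), with the mean of 3 libraries as a bar. CSE and CCoAOMT1 separate all libraries with med5 from all without, HCT is highest in med5, and CCR1 and CAD5 are highest in the genotypes with ref5-1.

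CCR1 and CCR2 encode the cinnamoyl-CoA reductases that commit CoA thioesters to monolignols, and CCR2 is better known for its induction in defence than for lignification. CCR1 had 170.1, 173 and 153 CPM in the ref5-1 med5 libraries, 140.4, 130.0 and 141 CPM in those of ref2-1 med5 and 129, 146 and 131 CPM in those of med5. Its libraries had 146, 154 and 155 CPM in ref5-1 and 124, 118 and 120.4 CPM in ref2-1, against 123, 116 and 141 CPM in wild type. Every library with ref5-1 exceeded every library without it, although the closest pair, ref5-1 replicate 1 and med5 replicate 2, rounds to the same value. CCR1 rose in ref5-1 relative to wild type (log2 change 0.26 ± 0.078, adjusted p = 0.0428), in ref5-1 med5 relative to med5 (log2 change 0.29 ± 0.078, adjusted p = 0.0237), in ref5-1 relative to ref2-1 (log2 change 0.33 ± 0.078, adjusted p = 0.00526) and in ref5-1 med5 relative to wild type (log2 change 0.39 ± 0.078, adjusted p = 0.00212). The first of these calls was lost without wild type replicate 1 (adjusted p = 0.158), wild type replicate 2 (adjusted p = 0.227), ref5-1 replicate 2 (adjusted p = 0.104) or ref5-1 replicate 3 (adjusted p = 0.0944). It was lost as well with no filter on low counts (adjusted p = 0.0586) and when only the 6 libraries compared were fitted (adjusted p = 0.141). The call in ref5-1 med5 relative to med5 was lost without med5 replicate 1 (adjusted p = 0.119), med5 replicate 3 (adjusted p = 0.0817), ref5-1 med5 replicate 1 (adjusted p = 0.0646) or ref5-1 med5 replicate 2 (adjusted p = 0.0993). Fitting only the 6 libraries compared also lost it (adjusted p = 0.0589). Plants with and without med5 differed in CCR1 by log2 fold changes of 0.12 in the ref5-1, 0.18 in the ref2-1 and 0.10 in the otherwise wild-type background, with no call.

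CCR2 was the member with the lowest counts, 18 to 149 reads per library, and with the widest relative spread, a coefficient of variation within genotypes of 30.6% on average. CCR2 had 3.91, 4.68 and 6.45 CPM in the ref5-1 med5 libraries, 3.27, 4.40 and 3.22 CPM in those of ref2-1 med5 and 1.15, 2.31 and 1.52 CPM in those of med5. Its libraries had 3.35, 2.97 and 2.97 CPM in ref5-1 and 1.97, 2.097 and 2.90 CPM in ref2-1, against 0.957, 0.675 and 2.66 CPM in wild type. Wild type replicate 3 lay above both other wild-type libraries and above all 3 med5 libraries. CCR2 rose 3.49-fold in ref5-1 med5 relative to wild type (log2 change 1.80 ± 0.36, adjusted p = 0.00249) and 3.01-fold relative to med5 (log2 change 1.59 ± 0.36, adjusted p = 0.01). The comparison with wild type missed the threshold when only the 6 libraries were fitted (adjusted p = 0.0662), and that with med5 without med5 replicate 1 (adjusted p = 0.0605). In ref2-1 med5 it rose 2.53-fold relative to wild type (log2 change 1.34 ± 0.37, adjusted p = 0.0166) and 2.18-fold relative to med5 (log2 change 1.12 ± 0.37, adjusted p = 0.0471). The first was lost without wild type replicate 1 (adjusted p = 0.0736), wild type replicate 2 (adjusted p = 0.0696) or ref2-1 med5 replicate 2 (adjusted p = 0.0674). It was lost too when only the 6 libraries compared were fitted (adjusted p = 0.0888). The comparison with med5 was lost with no filter on low counts (adjusted p = 0.0619) and without med5 replicate 1 (adjusted p = 0.181), med5 replicate 3 (adjusted p = 0.122), ref2-1 med5 replicate 1 (adjusted p = 0.0822), ref2-1 med5 replicate 2 (adjusted p = 0.154) or ref2-1 med5 replicate 3 (adjusted p = 0.0691). In ref5-1 alone CCR2 was not called against wild type (log2 change 1.11 ± 0.37, adjusted p = 0.0753), but it was in DESeq2 (adjusted p = 0.0339) and without wild type replicate 3 (adjusted p = 0.00107). Leaving out that library also gave a call in ref2-1 relative to wild type (adjusted p = 0.00294).

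F5H, the ferulate 5-hydroxylase (CYP84A1) that opens the syringyl and sinapate branch, varied least among the members, 1.29-fold between the lowest and the highest genotype mean. F5H had 257, 246 and 235 CPM in the ref5-1 med5 libraries, 203, 177 and 193 CPM in those of ref2-1 med5 and 232, 243 and 251 CPM in those of med5. Its libraries had 225, 223 and 222 CPM in ref5-1 and 207, 207 and 167 CPM in ref2-1, against 167, 193 and 211 CPM in wild type. The wild-type, ref2-1 and ref2-1 med5 libraries overlapped, and those of ref5-1, med5 and ref5-1 med5 all lay above them. F5H rose in ref5-1 med5 relative to wild type (log2 change 0.37 ± 0.092, adjusted p = 0.00846), except without wild type replicate 1 (adjusted p = 0.0662). It fell in ref2-1 med5 relative to med5 (log2 change −0.34 ± 0.092, adjusted p = 0.0183), a call lost without med5 replicate 3 (adjusted p = 0.0581) or ref2-1 med5 replicate 2 (adjusted p = 0.0865). F5H was the member for which the med5 alleles made the smallest difference in the ref2-1 background (log2 change −0.02 ± 0.092, adjusted p = 0.929). In med5 relative to wild type it was not called (log2 change 0.35 ± 0.092, adjusted p = 0.0907), though it was in DESeq2 (adjusted p = 0.0138).

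CAD4 and CAD5 encode the main cinnamyl alcohol dehydrogenases of Arabidopsis lignification, which carry out the last reduction. CAD4 had 174, 194 and 170.2 CPM in the ref5-1 med5 libraries, 169.6, 169 and 188 CPM in those of ref2-1 med5 and 162, 179 and 162 CPM in those of med5. Its libraries had 163, 134 and 130.1 CPM in ref5-1 and 111, 124 and 112 CPM in ref2-1, against 159, 172 and 171 CPM in wild type. Levels in ref2-1 were below all others, and the 4 genotypes other than ref2-1 and ref5-1 overlapped. CAD4 fell 1.44-fold in ref2-1 relative to wild type (log2 change −0.53 ± 0.088, adjusted p = 0.000333) and rose 1.51-fold in ref2-1 med5 relative to ref2-1 (log2 change 0.60 ± 0.088, adjusted p = 0.000416). In ref5-1 med5 it rose relative to ref5-1 (log2 change 0.33 ± 0.088, adjusted p = 0.0214). That call was lost without ref5-1 replicate 2 (adjusted p = 0.077), ref5-1 replicate 3 (adjusted p = 0.0769) or ref5-1 med5 replicate 2 (adjusted p = 0.115), and when only the 6 libraries compared were fitted (adjusted p = 0.138). The ref5-1 libraries were not called against wild type (log2 change −0.23 ± 0.088, adjusted p = 0.117), yet were called lower without ref5-1 replicate 1 (adjusted p = 0.016). In ref5-1 relative to ref2-1 it was higher (log2 change 0.30 ± 0.088, adjusted p = 0.0216), which was lost without ref5-1 replicate 1 (adjusted p = 0.085), ref2-1 replicate 1 (adjusted p = 0.0751) or ref2-1 replicate 3 (adjusted p = 0.0688). The fit to those 6 libraries alone lost it too (adjusted p = 0.0939).

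CAD5 parted from CAD4 in ref5-1 relative to wild type, with log2 changes of 0.68 for CAD5 and −0.23 for CAD4. In ref2-1 med5 relative to ref2-1 they were closer, at 0.54 for CAD5, not called, and 0.60 for CAD4. CAD5 had 43.7, 44.9 and 49.2 CPM in the ref5-1 med5 libraries, 33.0, 30.5 and 28.2 CPM in those of ref2-1 med5 and 24.8, 36.7 and 25.3 CPM in those of med5. Its libraries had 46.5, 35.6 and 34.8 CPM in ref5-1 and 16.99, 20.1 and 26.2 CPM in ref2-1, against 23.6, 19.2 and 30.3 CPM in wild type. The 3 libraries of ref5-1 med5 and, but for 1 med5 library, those of ref5-1 lay above every library without ref5-1. CAD5 rose 1.88-fold in ref5-1 med5 relative to wild type (log2 change 0.91 ± 0.19, adjusted p = 0.00336) and was 1.85-fold higher in ref5-1 than in ref2-1 (log2 change 0.89 ± 0.19, adjusted p = 0.00364). In ref5-1 relative to wild type it rose (log2 change 0.68 ± 0.19, adjusted p = 0.0361), and this call was lost without wild type replicate 1 (adjusted p = 0.115), wild type replicate 2 (adjusted p = 0.167), ref5-1 replicate 1 (adjusted p = 0.155) or ref5-1 replicate 2 (adjusted p = 0.0546). No filter on low counts (adjusted p = 0.052) and a fit to the 6 libraries alone (adjusted p = 0.0572) lost it as well. Its rise in ref5-1 med5 relative to med5 (log2 change 0.66 ± 0.19, adjusted p = 0.0341) was lost without med5 replicate 1 (adjusted p = 0.146), med5 replicate 3 (adjusted p = 0.112), ref5-1 med5 replicate 2 (adjusted p = 0.0765) or ref5-1 med5 replicate 3 (adjusted p = 0.105). The med5 alleles gave no call for CAD5 in any background, although in ref2-1 med5 relative to ref2-1 it passed in DESeq2 (adjusted p = 0.0437) and without ref2-1 replicate 3 (adjusted p = 0.0483).

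Levels were compared between genes per kilobase of exon, with exon lengths of the TAIR10.1 annotation. CCoAOMT1 stood first in every genotype, at mean levels of 156 to 319 CPM per kb. HCT, F5H, CAD4 and CCR1 followed in an order that varied, between 59.6 and 129 CPM per kb. C3'H (22.4 to 38.8 CPM per kb), CSE (19.3 to 34.5 CPM per kb) and CAD5 (13.04 to 28.4 CPM per kb) followed in that order in every genotype, and CCR2 was last at 0.681 to 2.39 CPM per kb. With coding length in place of exon length, the first rank and the last were the same while C3'H, CSE and CAD5 changed places in some genotypes.

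The isoenzyme pairs were also described by their shares per kilobase, with no test. CCR2 made up 2.096% to 3.78% of the CCR2 and CCR1 level in ref5-1 med5, 2.08% to 3.06% in ref2-1 med5, 0.826% to 1.45% in med5, 1.75% to 2.09% in ref5-1 and 1.47% to 2.20% in ref2-1, against 0.538% to 1.72% in wild type. CAD4 made up 75.5% to 79.4% of the CAD4 and CAD5 level in ref5-1 med5, 82.1% to 85.6% in ref2-1 med5, 81.3% to 85.4% in med5, 75.8% to 77.0% in ref5-1 and 79.3% to 85.4% in ref2-1, against 83.4% to 88.9% in wild type. The CAD4 share in both genotypes with ref5-1 thus lay below that in wild type with no overlap. In every library CAD4 and CCR1 were the larger member of their pair.

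**Figure D4:**
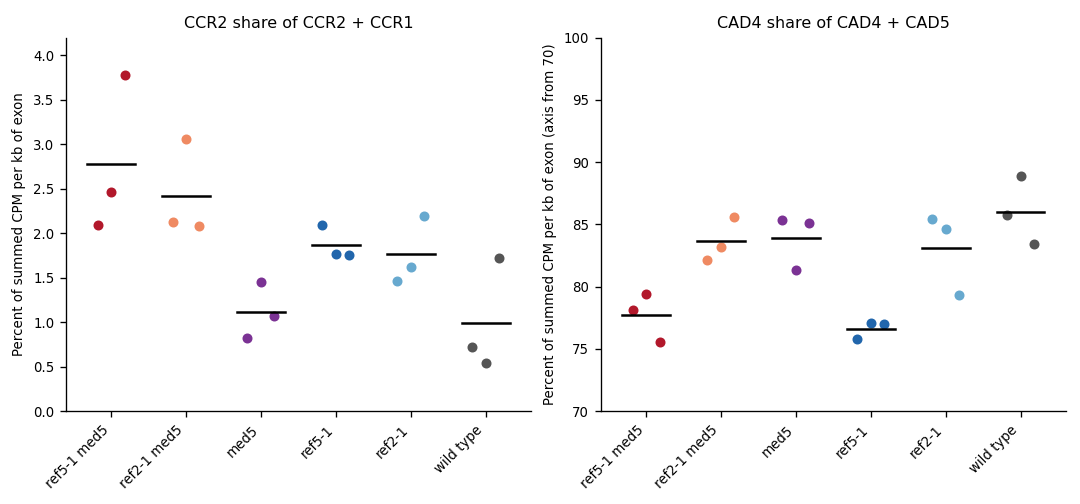
Share of CCR2 in the summed level of CCR2 and CCR1 (left, axis from 0) and of CAD4 in that of CAD4 and CAD5 (right, axis from 70%), in percent of CPM per kb of exon, by library (points) with the genotype mean (bars). CCR2 stays under 4% in all 18 libraries, and the CAD4 share in ref5-1 med5 and ref5-1 lies between 75.5% and 79.4%.

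Profiles over the 6 genotypes were set beside those of 14694 other genes that averaged 5 CPM or more, by the root mean square difference of centred log2 genotype means. Within the pathway, C3'H and CSE were the closest pair, at 0.0444 on the log2 scale, while their own deviations from their means were 0.26 for C3'H and 0.28 for CSE. The nearest genes outside the pathway were ABCB19, an auxin exporter gene, and the transcription factor gene SHR for C3'H, and SAM1, an S-adenosylmethionine synthetase gene, and SHR for CSE. For HCT they were the ethylene response factor gene EBP (AT3G16770) and AT1G11670, and for CCoAOMT1 the boric acid channel gene NIP5;1 and PAL1. WRKY17 and AT1G78060 were nearest to CCR1, ATMG01390 and AT5G61820 to CCR2, and GAE6 and UMAMIT30 to F5H. AT4G26540 and GRH1 were nearest to CAD4, and the cambium homeobox gene WOX4 and AT5G06930 to CAD5. Among these the best match was closest for CAD4, at 0.0389, and least close for CCR2, at 0.16. With 6 points per gene and this many candidates, such likeness is a description only.

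The enzymes upstream, phenylalanine ammonia-lyase (PAL), cinnamate 4-hydroxylase (C4H) and 4CL, form a list of 9 genes. Of these, 8 were called higher in ref5-1 med5 relative to ref5-1 and 6 in ref2-1 med5 relative to ref2-1, with 4 called higher in med5 relative to wild type. With 1 library left out the count of 8 ran from 6 to 7 and that of 4 from 3 to 6, while that of 6 did not change. DESeq2 called 5 higher in med5 relative to wild type. In ref2-1 relative to wild type 6 were called lower, and in ref5-1 relative to wild type PAL3 alone was, a call lost without wild type replicate 2 or 3 or ref5-1 replicate 1 or 2. The 4CL genes 4CL2 and 4CL1 and the ammonia-lyase gene PAL4 led the first 3 of these comparisons. 4CL1 averaged 311 ± 10.2 CPM in ref5-1 med5, against 151 ± 11.3 CPM in ref5-1 (SD, n = 3 each; log2 change 1.04 ± 0.095, adjusted p = 3.36e-06). It averaged 255 ± 16.0 CPM in ref2-1 med5, against 94.7 ± 8.62 CPM in ref2-1 (log2 change 1.43 ± 0.096, adjusted p = 3.77e-08). In med5 4CL1 averaged 291 ± 40.2 CPM, against 159 ± 7.96 CPM in wild type, called with a log2 change 0.87 ± 0.095, adjusted p = 5.30e-05. PAL4 averaged 31.4 ± 4.22 CPM in ref2-1 med5, against 3.50 ± 1.23 CPM in ref2-1 (log2 change 3.16 ± 0.29, adjusted p = 1.82e-05). The median log2 fold change of the 9 genes in ref5-1 med5 relative to ref5-1 was 0.73, beside 0.39 for the 10 enzymes after 4CL. In ref2-1 med5 relative to ref2-1 it was 0.56, beside 0.62.

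Known negative regulators of the pathway were described beside the enzymes. This list of 7 holds 4 Kelch-domain F-box genes, whose products target PAL for degradation, and the repressor genes MYB4, MYB7 and MYB32. KFB39, KFB50 and MYB4 were known from these mutants when the list was made, so their direction is no independent evidence. Of the 7, 5 were called higher in ref5-1 and 5 in ref2-1, each relative to wild type, 4 were called lower in each triple mutant relative to its single mutant and 2 were called lower in med5 relative to wild type (4 in DESeq2). In ref2-1 med5 relative to wild type 2 were called higher and 2 lower. The higher count there was 1 without wild type replicate 1 or 3 or ref2-1 med5 replicate 1 or 3. In ref5-1 med5 relative to med5 2 were called higher and 1 lower, and 0 in either direction without med5 replicate 1 or ref5-1 med5 replicate 2. There the higher count was 1 without med5 replicate 3 or ref5-1 med5 replicate 1 or 3. MYB4 averaged 14.98 ± 0.521 CPM in ref5-1 med5, 15.2 ± 0.797 CPM in ref2-1 med5, 14.1 ± 0.754 CPM in med5, 35.2 ± 4.94 CPM in ref5-1 and 42.7 ± 2.69 CPM in ref2-1, against 22.5 ± 2.14 CPM in wild type (SD, n = 3 each). KFB39 averaged 65.1 ± 10.99 CPM in ref5-1 and 65.4 ± 3.02 CPM in ref2-1, against 11.9 ± 0.514 CPM in wild type.

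**Figure D5:**
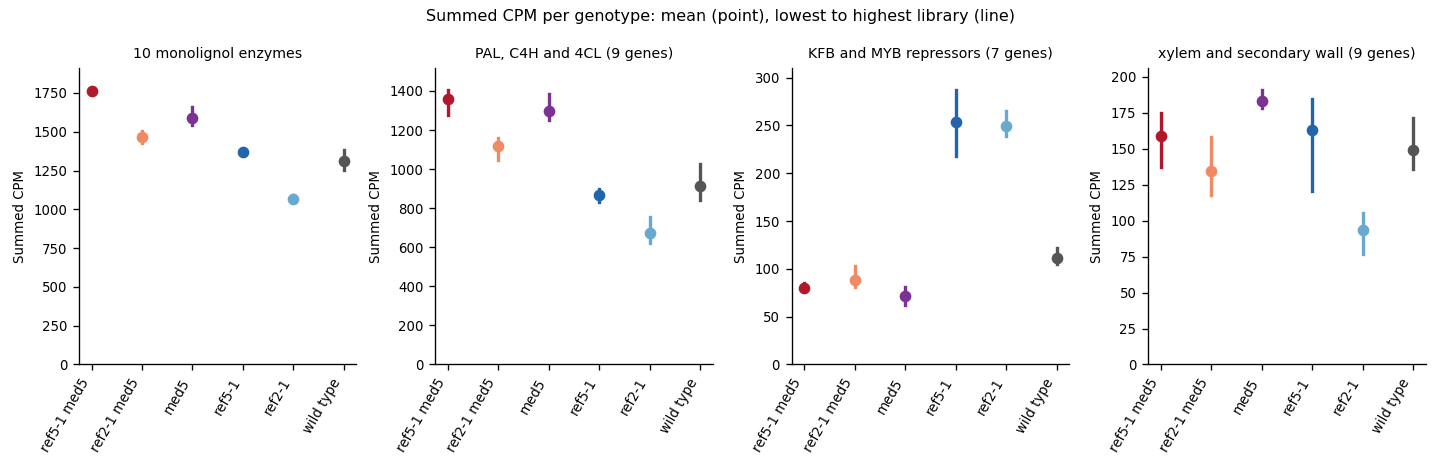
Summed CPM (y axis, from 0) of the 10 monolignol enzymes, the 9 PAL, C4H and 4CL genes, the 7 negative regulators and the 9 xylem and secondary wall genes, by genotype (x axis), as the mean (point) and the range over 3 libraries (line). The monolignol enzymes sum to 1747 to 1771 CPM in ref5-1 med5 and to 1049 to 1090 CPM in ref2-1, and the xylem list is lowest in ref2-1.

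In ref2-1 relative to wild type, 5 of 10 members and 11.2% of all tested genes were called lower. Xylem and secondary wall genes, the markers of the lignifying cells, were mostly lower there too. Of 9 such genes 7 were called lower in ref2-1 relative to wild type, among them the cellulose synthase gene CESA4 (log2 change −0.71 ± 0.15, adjusted p = 0.00272) and FLA11 (log2 change −1.06 ± 0.13, adjusted p = 2.89e-05). In ref5-1 relative to ref2-1 8 of the 9 were called higher. Their summed level per library was 138 to 175 CPM in ref5-1 med5, 118 to 158 CPM in ref2-1 med5, 178 to 191 CPM in med5, 121 to 185 CPM in ref5-1 and 77.0 to 105 CPM in ref2-1, against 136 to 171 CPM in wild type. None of the 9 was at 0 in any genotype. Their part in the lower member levels of ref2-1 was not tested, and in whole rosettes fewer cells of a type and less RNA per cell cannot be told apart. Without wild type replicate 3 the count of 7 was 4, and without ref2-1 replicate 2 it was 3. Where the med5 alleles were added, edgeR's quasi-likelihood test and DESeq2 each called 0 of 9 in ref5-1 med5 relative to ref5-1 (1 at an unadjusted p under 0.05, and 1 called lower without ref5-1 replicate 1) and 0 of 9 in med5 relative to wild type (2 at an unadjusted p under 0.05). In ref2-1 med5 relative to ref2-1, FLA11 and XCP2 were called higher, 2 of 9 (3 in DESeq2), and 1 of 9 without ref2-1 replicate 2 or 3 or any of the ref2-1 med5 libraries. Against med5, where HCT and F5H fell in ref2-1 med5, 4 of 9 were called lower in that genotype. That count was 2 without med5 replicate 3, 1 without med5 replicate 2 and 0 without med5 replicate 1 or ref2-1 med5 replicate 1 or 2, and its part in those falls was not tested. The median log2 fold change of the 9 was 0.02 in ref5-1 med5 relative to ref5-1, 0.44 in ref2-1 med5 relative to ref2-1 and 0.27 in med5 relative to wild type.

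Markers of other tissues and of defence were read beside the members. Root genes, 5 in the list, summed to 373 to 444 CPM in ref5-1 med5, 159 to 188 CPM in ref2-1 med5, 63.4 to 111 CPM in med5, 359 to 411 CPM in ref5-1 and 89.8 to 146 CPM in ref2-1, against 97.2 to 156 CPM in wild type, and none was at 0 in any genotype. Nearly all of each sum was BGLU23, which averaged 383 ± 26.1 CPM in ref5-1, against 128 ± 30.0 CPM in wild type (SD, n = 3 each). The sums were highest in the genotypes with ref5-1, as CCR1 and CAD5 were, and their part in those members' levels was not tested. Of the 3 root genes tested, BGLU23 and RCI3 were called higher in ref5-1 med5 and also in ref2-1 med5, each relative to med5. The count in ref2-1 med5 was 1 without med5 replicate 1 or any ref2-1 med5 library. The 6 genes of salicylate defence, among them PR1 and PR2, were all called higher in ref2-1 relative to wild type and summed to 601 to 889 CPM in ref2-1, against 53.1 to 66.1 CPM in wild type. Their sums were 139 to 347 CPM in ref5-1 med5, 217 to 450.0 CPM in ref2-1 med5, 83.7 to 204 CPM in med5 and 96.8 to 119.8 CPM in ref5-1. CCR2, the member linked to defence, had its highest mean in ref5-1 med5, while these sums were highest in ref2-1. Of the 6 defence genes, 4 were called higher in ref5-1 med5 and 6 in ref2-1 med5, each relative to wild type. Relative to med5 these counts were 2 and 4. CCR2 rose in the same comparisons, and the part of these genes in its level was not tested. The 5 inflorescence genes summed to between 2.13 and 10.1 CPM in every library, and 3 of them were called higher in ref2-1 med5 relative to ref2-1. In ref5-1 med5 relative to med5 3 were called lower. Lower calls numbered 2 in ref5-1 relative to wild type. That number was 1 without ref5-1 replicate 3 or wild type replicate 1, and 0 without ref5-1 replicate 1 or wild type replicate 2.

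Further lists held relatives of the members and genes of neighbouring steps. Of 11 tested paralogs of the members, 5 were called higher and 1 lower in ref5-1 relative to ref2-1, and CAD7 was among the higher ones (log2 change 1.12 ± 0.13, adjusted p = 1.41e-05). In ref2-1 relative to wild type 3 of the 11 were called lower, among them CAD9 (log2 change −0.60 ± 0.091, adjusted p = 0.000146), and CAD1 was called higher (log2 change 1.03 ± 0.18, adjusted p = 0.000598). Without wild type replicate 3 the higher count was 2. In ref2-1 med5 relative to ref2-1, CAD9 alone was called higher (log2 change 0.45 ± 0.091, adjusted p = 0.00483). Of 7 tested genes for sinapate and monolignol conjugates, 4 were called higher in ref2-1 relative to wild type, among them the aldehyde dehydrogenase gene ALDH2C4 (log2 change 0.78 ± 0.084, adjusted p = 7.96e-06) and the sinapate glucosyltransferase gene UGT84A2 (log2 change 0.66 ± 0.13, adjusted p = 0.00154). SNG1, which encodes the sinapoyltransferase that makes sinapoylmalate, was called lower there (log2 change −0.37 ± 0.098, adjusted p = 0.0101), a call lost without wild type replicate 2 or ref2-1 replicate 1. ALDH2C4 and UGT84A2 fell in ref2-1 med5 relative to ref2-1, ALDH2C4 with a log2 change −0.40 ± 0.084, adjusted p = 0.00583 and UGT84A2 with a log2 change −1.07 ± 0.13, adjusted p = 0.000102. Of 10 tested activators of wall formation, MYB43, MYB58, MYB63 and VND6 were called higher in ref2-1 med5 relative to ref2-1, MYB43 with a log2 change 1.93 ± 0.22, adjusted p = 3.30e-05. The count of activators called higher there was 3 in DESeq2 and 3 whichever of the compared libraries was left out. In ref2-1 relative to wild type MYB58 and MYB43 were called lower. Of the 6 laccase and peroxidase genes for monolignol polymerisation, PRX64 was called higher in ref5-1 med5 relative to med5 (adjusted p = 0.000295), at low mean levels of 0.838 CPM in ref5-1 med5 and 0.0306 CPM in med5. In ref5-1 med5 relative to wild type 2 of the 6 were called higher, and in ref5-1 relative to ref2-1 4 were (3 in DESeq2). The count of 4 was 2 without ref2-1 replicate 1 or 3, 1 without ref5-1 replicate 2 and 0 without ref5-1 replicate 3 or ref2-1 replicate 2.

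Counts of 3 members may have gained or lost reads in stretches shared with a neighbour, because the strand setting of the counting is not given in the sources used here. By the TAIR10.1 annotation and for neighbours that are in the count table, CCR1 shares 473 bases, 24.2% of its exons, with AT1G15960 on the opposite strand, which averaged 17.6 to 22.7 CPM per genotype. CCR2 shares 132 bases, 6.29% of its exons, with AT1G80830, which averaged 40.5 to 47.8 CPM per genotype and so exceeded CCR2 in each of them. C3'H shares 70 bases with AT2G40880. Neighbours on the opposite strand that are not in the count table are AT1G05213 and AT2G09205. AT1G05213 shares 1061 bases with CCR1, 54.2% of its exons, and AT2G09205 shares 24 bases with C3'H. Without strand, reads of the member and of its neighbour in the shared stretch cannot be told apart.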

How the data were processed

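RNA was measured in 18 whole-rosette libraries of 6 genotypes, grouped by the genotype and replicate number in their labels. Raw counts of reads per gene were deposited by the authors in 1 table, unnormalized. The submitters' processing notes name TAIR10, Trimmomatic, edgeR, HTSeq 0.6.1 and TopHat2 2.1.0. Options, annotation release and strand setting: not given in the sources used here. The table's 5 summary lines (unassigned reads, with 3.71% to 25.3% of reads aligned to several places) stayed out of library sizes and tests.

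Counts were scaled by TMM, filtered by filterByExpr (19897 of 33602 genes remained) and fitted with edgeR 4.0.16 (robust quasi-likelihood, R 4.3.3), with 1 coefficient per genotype over all 18 libraries and Benjamini-Hochberg adjustment over all tested genes. SE was derived from the F statistic. There were 10 comparisons of genotypes and 2 interactions. The script was tested on simulated data. Alternatives were RLE scaling, no filter on low counts, DESeq2 1.42.0, the compared libraries only, a replicate block and leaving out each library.

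The members and the lists were chosen with earlier results of these data known. Named genes outside the members were the targeted genes, up to 4 called genes of a list per comparison with the smallest adjusted p, and the 2 genes nearest to each member in profile. List identifiers (102) all matched the TAIR10.1 gene table, which served for names, exon length and overlaps alone. For 1 of the 10 members no values are reported here, though counts and sums over the 10 include it. No sequence is printed, and replicates of a genotype differed by more than sampling noise in every pair.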

Additional observations from a re-analysis of the deposited data

Results flagged for a closer look

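One result was set apart because the effect of an allele differed between backgrounds in a test of the difference itself. CAD4 had an interaction of ref2-1 with med5 of 0.60 ± 0.12 on the log2 scale (adjusted p = 0.0336 in edgeR's quasi-likelihood test). It averaged 175 ± 10.6 CPM in ref2-1 med5 and 168 ± 10.1 CPM in med5, and 116 ± 6.97 CPM in ref2-1 and 167 ± 7.16 CPM in wild type (SD, n = 3 each). The call was lost in 9 of the 12 fits that left out 1 library, with adjusted p up to 0.104, and the sign was the same in all 12.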

How the results depend on the processing

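The single-gene values of the 10 members in the 12 comparisons and interactions gave 120 results, of which 50 were called, and 29 of these 50 were called under every alternative. Of 1440 recomputed values, 1348 kept their side of the threshold, 79 lost the call, 13 gained one and 0 of the called values changed sign. Counts of called members moved by more than 1.5 times as follows. In ref5-1 relative to wild type the count was 3, and 1 with no filter on low counts and 0 with the compared libraries only. In med5 relative to wild type it was 2, and 5 in DESeq2. In ref5-1 med5 relative to med5 it was 5, and 3 with the compared libraries only. For the interaction of ref2-1 with med5 it was 1, and 2 in DESeq2. With 1 library left out the counts ran from 1 to 4 in ref5-1 and 3 to 5 in ref2-1 relative to wild type, 1 to 2 in med5 relative to wild type, 1 to 5 in ref5-1 med5 and 1 to 3 in ref2-1 med5 relative to med5, and 0 to 2 for the interaction of ref2-1 with med5. The causes were not tested. Replicate numbers did not clearly pair the libraries. The deviations of same-numbered libraries correlated at 0.0535 on average (lowest −0.193), and those of differently numbered ones at −0.0264. Correlations over 0.1 were found in 13 of 45 same-numbered pairs and in 17 of 90 others. In all, 9 of 18 libraries were closest to their own number. Whether a weak pairing exists was not tested. With a replicate block the count in ref5-1 med5 relative to med5 was 3, as CSE (adjusted p = 0.0568) and CAD5 (adjusted p = 0.051) lost their calls, and no other member count moved by over 1.5 times. In ref5-1 relative to wild type the block lost CCR1 (adjusted p = 0.0574) and CAD5 (adjusted p = 0.0506) and gained CCR2 (adjusted p = 0.045), all in edgeR's quasi-likelihood test. Over all tested genes, the compared libraries only gave 1057 calls in place of 1735 in ref5-1 relative to wild type, 1166 in place of 2149 in ref5-1 med5 relative to ref5-1, 2816 in place of 4258 in ref5-1 relative to ref2-1, and 10 in place of 18 for the interaction of ref5-1. DESeq2 gave 499 in place of 155 in med5 relative to wild type, 126 for the interaction of ref5-1 and 597 in place of 149 for that of ref2-1, where the replicate block gave 297. With 1 library left out these all-gene counts ran as low as 716 of 1735 in ref5-1 and 52 of 155 in med5 relative to wild type, 897 of 2149 in ref5-1 med5 relative to ref5-1 and 762 of 1773 in ref2-1 med5 relative to ref2-1, 1078 of 2077 in ref5-1 med5 and 1578 of 3238 in ref2-1 med5 relative to med5, and 2406 of 3800 in ref5-1 med5 and 2708 of 4125 in ref2-1 med5 relative to wild type. They ran from 10 to 33 for the interaction of ref5-1 and from 38 to 475 for that of ref2-1. RLE scaling moved the median of all genes by at most 0.0131 on the log2 scale. Depth limits CCR2 most, with 18 to 149 reads per library.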
